A study of Mus musculus with 29 samples.

Results

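An exonic bin is a stretch of exon cut wherever the transcripts of a gene differ, so that reads can be compared along a gene and not only over the whole of it. The regions described here are the bins that the authors listed as changed in CA1, the hippocampal field that sends the output of the hippocampus to the cortex, 1 h after training. A bin was a member if it stood in the CA1 list after a new context or in the CA1 list after context plus footshock, each against naive mice. There were 302 such bins, of 5317 bins listed in any of the 4 bin tables of the series. Of these, 81 stood in both CA1 lists, 113 in the context list only and 108 in the shock list only. They lay in 254 host IDs, and 28 of them lay in 22 IDs that merge overlapping genes, where reads cannot be given to 1 gene.

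All mice were males aged 3 months of a strain the labels spell C56BL/6. The CA1 groups were 5 libraries taken 1 h after exposure to a new context, 4 libraries taken 1 h after that context plus a footshock of 0.7 mA, and 5 libraries of naive mice. The groups from the anterior cingulate cortex (ACC), a cortical area used in the recall of older memories, were 5 libraries taken 4 weeks after context, 5 taken 4 weeks after context plus shock, and 5 of naive mice. Whole tissue was used, so fewer cells of a type and less RNA per cell cannot be told apart, and the labels do not state whether naive CA1 and naive ACC came from the same mice. Of 8 CA1 marker genes, 7 had a higher base mean in the CA1 context table than in the ACC context table, for example Fibcd1 with 4061 against 128 in the authors' deposited tables.

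Neurons change a transcript not only through its amount but through where it starts, which exons it keeps and where it is cleaved and polyadenylated. The last exon usually holds the 3' untranslated region (3' UTR), which carries sites for RNA-binding proteins and microRNAs and steers mRNA into dendrites, and activity can move cleavage to an earlier site. The best known case at the synapse is Homer1, a scaffold of metabotropic glutamate receptors, whose short activity-induced form ends inside an intron of the long form.

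The files number bins along the chromosome but give no bin coordinates. Bins were therefore rebuilt from a later annotation, GENCODE M21 on GRCm38 (the mm10 build), and members were placed by number. That gave a place to 293 members, and 167 of these lay in genes whose ends are the same in the authors' gene table. A place is thus an estimate, since 1 bin more or fewer in the authors' version shifts all that follow. The sequences below are those of coding bins that carry the patterns described further on, all with matching gene ends except Homer1, written 5' to 3' on the strand of the gene and credited to GENCODE M21. They are the Btaf1 bins of large relative change (plus strand, chr19:36956371-36956534 and chr19:36958373-36958509), an Eif5b bin higher in both regions (plus strand, chr1:38021594-38021811), neighbouring Slc1a2 bins higher in CA1 and lower in ACC (plus strand, chr2:102737777-102737929 and chr2:102739689-102739876), and a Luc7l3 bin that went against its gene (minus strand, chr11:94297068-94297167). The last line is the coding start of Homer1 E014 as placed, the 31 bases that only the short form reads (plus strand, chr13:93356080-93356110).
Btaf1 E005: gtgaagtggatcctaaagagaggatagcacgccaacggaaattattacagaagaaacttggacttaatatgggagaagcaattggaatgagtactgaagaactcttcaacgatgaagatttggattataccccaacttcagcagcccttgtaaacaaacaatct
Btaf1 E006: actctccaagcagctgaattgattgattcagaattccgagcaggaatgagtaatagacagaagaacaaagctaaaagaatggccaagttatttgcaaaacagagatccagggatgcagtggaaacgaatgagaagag
Eif5b E005: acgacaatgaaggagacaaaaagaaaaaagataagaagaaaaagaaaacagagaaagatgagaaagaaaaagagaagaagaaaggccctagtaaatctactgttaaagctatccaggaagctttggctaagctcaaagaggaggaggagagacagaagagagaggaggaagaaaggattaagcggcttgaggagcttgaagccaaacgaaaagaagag
Slc1a2 E018: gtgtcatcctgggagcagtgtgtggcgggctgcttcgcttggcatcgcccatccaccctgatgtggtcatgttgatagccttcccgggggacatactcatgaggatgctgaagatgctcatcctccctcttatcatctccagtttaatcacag
Slc1a2 E019: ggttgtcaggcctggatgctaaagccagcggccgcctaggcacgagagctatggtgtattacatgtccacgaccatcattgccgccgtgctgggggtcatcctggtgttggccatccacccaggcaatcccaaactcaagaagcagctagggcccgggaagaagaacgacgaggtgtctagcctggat
Luc7l3 E021: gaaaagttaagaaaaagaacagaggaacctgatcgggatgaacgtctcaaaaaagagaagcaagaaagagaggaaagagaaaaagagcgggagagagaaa
Homer1 E014: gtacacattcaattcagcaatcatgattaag

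The members were chosen by the adjusted p of these contrasts: a bin enters a deposited table if that value is under 0.1. Beside it stand the base mean, which is the mean normalised count of the bin, and the log2 fold change. They hold no value per library, so no spread between mice can be shown and the depth of each library is unknown here. A positive log2 value is higher in trained mice, as read from the base means. After context, 194 of 210048 tested bins were listed (0.0924%), 60 higher (0.0286% of those tested) and 134 lower (0.0638%) in trained mice. After shock, 189 of 209445 were listed (0.0902%), 65 higher (0.031%) and 124 lower (0.0592%). At an adjusted p under 0.05 there were 101 bins after context (0.0481%) and 122 after shock (0.0582%). The number tested was worked out from the adjustment of the listed p. The 81 shared bins were 41.8% of the context list and 42.9% of the shock list; both comparisons use the same naive mice. Of the 81, 25 were higher and 55 lower in both tables, and 1 had opposite signs.

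Most differences were small. The median log2 fold change of the higher bins was 0.18 after context and 0.24 after shock in the authors' deposited tables, and that of the lower bins was -0.16 and -0.15. An absolute log2 fold change of at least 1 was reached by 2 bins after context and 3 after shock, while 44 and 48 bins lay under 0.1. Higher bins were the less abundant: their median base mean was 93.9 after context and 120.0 after shock, against 326 and 313 for lower bins in the authors' deposited tables. The listed size fell with the base mean, with a median absolute log2 of 0.41 below a base mean of 100 and 0.089 at 1000 or more after context, and of 0.44 and 0.066 after shock. These values chose the members and are given as a description. Nearest to the limit of listing were Slitrk2 E005, Ncoa6 E003 and Trio E001 after context, with adjusted p-values of 0.0996, 0.0961 and 0.0940, and Ids E004, Fam57b E009 and Lmo7 E060 after shock, with 0.0997, 0.0983 and 0.0979; bins beyond the limit are not analysed here.

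**Figure D1:**
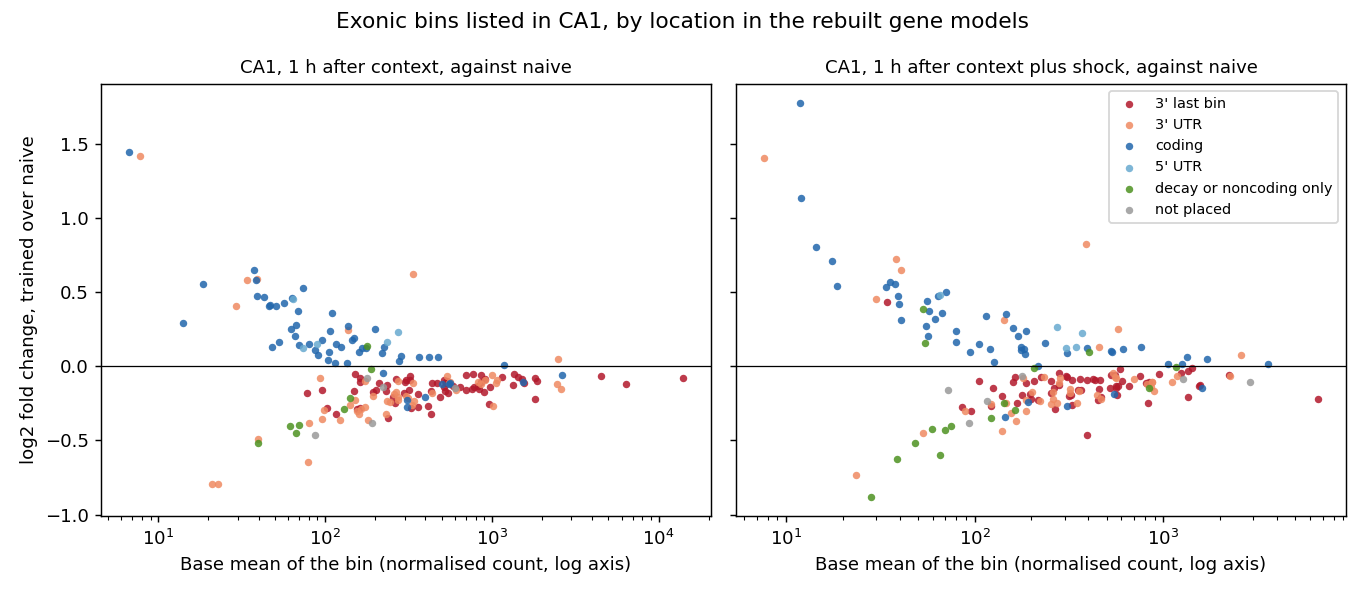
Log2 fold change (vertical, trained over naive) against base mean (horizontal, normalised count, log axis) of each listed bin in CA1, after context on the left and after context plus shock on the right; colours give the location in the rebuilt gene models. Coding bins (blue) lie mostly above 0 and 3' last bins (dark red) almost all below it, and the widest changes stand at low base means.

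The direction of a bin went with its place in the gene. Of the 105 members placed as the last, 3'-most bin of their gene, 104 were lower in trained mice and 1 was higher. Among 74 members elsewhere in 3' UTRs, 65 were lower and 9 higher. Coding bins ran the other way, with 77 of 88 higher, 10 lower and 1 of mixed sign. The 8 members in 5' UTRs were all higher. The last bin was 3.56% of the 6918 rebuilt bins in the placed host genes, while 105 of the 293 placed members were last bins. Listed ACC bins that are not members also fell there often. On the plus strand 763 of 2400 did (31.8%, a count the placing was tuned on). On the minus strand 828 of 2268 were E001 (36.5%). A high share of last bins was thus not particular to CA1. Bins tested but not listed have no values here, so how far counts per bin set these shares was not tested. The median length was 3441 bases for last bins and 150 for coding bins. Last bins ran from 2 to 12953 bases as placed, and the shortest may not have the extent of the authors' bins.

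A part of this needs no rebuilding. Bin E001 of a gene on the minus strand is its 3' end, whatever the other bins are, and 58 of 59 such members were lower. The exception was E001 of Ndufab1, of the mitochondrial acyl carrier protein, at 0.43 after shock in the authors' deposited table. On the plus strand, where E001 is the 5' end, there were 3 members and all were higher: Grm5 E001, of the metabotropic glutamate receptor mGluR5, Kcnab1 E001, of a potassium channel beta subunit, and 3110035E14Rik E001. Plus-strand genes gave 46 last bins by placing, all lower. In genes with matching ends, 57 of 58 last bins were lower and 50 of 52 coding bins higher. The placing rule itself was tuned on ACC bins that are not members, by how many fell on a gene's last bin.

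**Figure D2:**
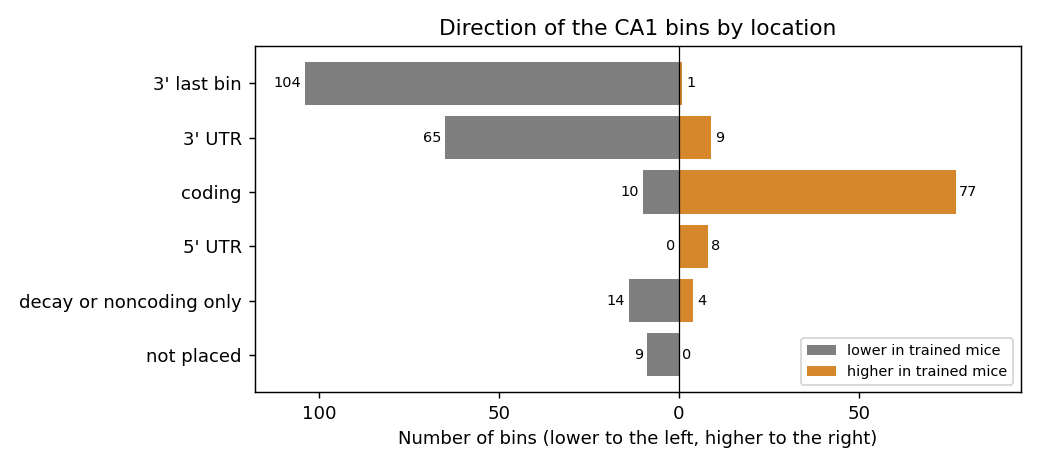
Number of CA1 member bins that were lower (grey, to the left) or higher (orange, to the right) in trained mice than in naive mice, by location in the rebuilt gene models. The 3' last bins were 104 lower and 1 higher, and the coding bins 10 lower and 77 higher; the bin of mixed sign is left out.

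The member 3' bins also differed from member coding bins in GC content. It was not counted for bins outside the members, so a difference particular to the members is not shown. Bins as short as 2 bases are included. The median GC content was 39.5% in last bins, 38.5% in other 3' UTR bins, 51.3% in coding bins and 56.9% in 5' UTR bins. The poly(A) signal hexamers AATAAA or ATTAAA, searched on the gene's strand, stood in the last 50 bases of a transcript ending with the bin for 94 of the 105 last bins (89.5%). Of 13938 protein-coding genes of the CA1 context gene table, 78.6% had one in the last 50 bases of the gene. A hexamer is a match of letters and not a measured site.

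Homer1 held the bin with the smallest p in each list, E014 after context and E025 after shock. E014, placed in the tail that only the short, activity-induced form reads, had a log2 fold change of 0.62 after context (adjusted p = 1.33e-15) and 0.82 after shock (adjusted p = 6.86e-20) in the authors' deposited tables. E025 and E027, downstream in the long form, went the other way: E025 had -0.26 and -0.25, and E027 -0.47 and -0.38, after context and shock in the authors' deposited tables. The whole gene had 0.91 and 1.06 in the authors' deposited tables. A bin's value was thus not its gene's value, and a lower bin in a gene that rose need not have lost reads. The authors' number E027 exceeds the 26 rebuilt bins of Homer1, so the places of its bins are less certain than most.

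Genes of RNA splicing held several members. Luc7l3, whose product belongs to a family tied to U1 snRNP, had neighbouring higher bins: E019 at 0.38 and 0.36 and E021 at 0.53 and 0.50, after context and shock in the authors' deposited tables. E020 between them had 0.46 after context in the authors' deposited table. These bins are coding in some annotated transcripts, and the same stretch is in transcripts annotated as nonsense-mediated decay or retained intron. Luc7l3 E005, in the 3' UTR, had -0.18 and -0.20, and the whole gene -0.20 (called) and -0.17 (not called) in the authors' deposited tables. The merged ID of Sfpq, a paraspeckle and splicing protein, and Gm12940 had 4 members, all lower and all placed in decay or noncoding transcripts only. Their values ran from -0.43 at E022 to -0.88 at E024 after shock in the authors' deposited table. Hnrnpa2b1, an hnRNP that binds transport signals in mRNA, had E004 at -0.43, E005 at -0.34 and E006 at -0.15 after shock and E006 at -0.10 after context, in the authors' deposited tables. E004 was placed in the 3' UTR, while E005 and E006 were coding and so went against the direction of most coding members.

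**Figure D3:**
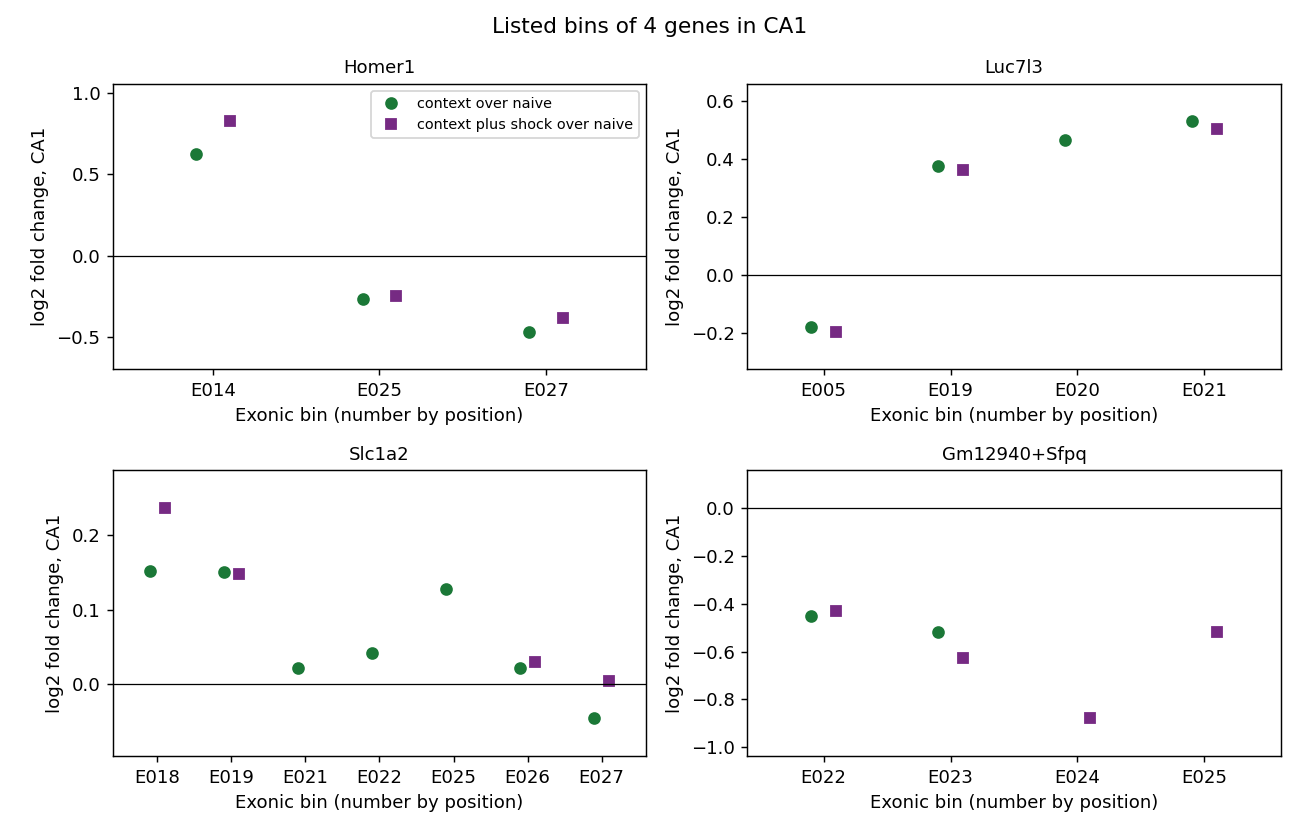
Log2 fold change over naive CA1 of each listed bin of Homer1, Luc7l3, Slc1a2 and the merged ID of Gm12940 and Sfpq, with bins ordered by number; circles are context and squares context plus shock, and a missing symbol means that the bin was not in that list. Homer1 E014 lies above 0 with E025 and E027 below, and the Luc7l3 bins from E019 to E021 lie above 0 with E005 below.

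Other RNA-binding genes had members in both directions. Higher were Mbnl2 E003 in the 5' UTR, Mbnl2 E004 in coding sequence, and the coding bin E024 of the merged ID of Ddx5. The lower members named next lay at 3' ends or in decay or noncoding transcripts, unlike the coding bins E005 and E006 of Hnrnpa2b1. Tardbp E005, in the 3' UTR through which TDP-43 controls its own mRNA, had -0.22 after shock (adjusted p = 2.04e-07) in the authors' deposited table. Srsf6, an SR protein, had its last bin at -0.14 after both trainings, and that of Elavl1, which encodes the mRNA-stabilising protein HuR, had -0.14 and -0.11, after context and shock in the authors' deposited tables. In the merged ID of Srrm2, a spliceosome protein, bins placed in decay or noncoding transcripts only were lower: E030 had -0.40 and -0.43 and E034 -0.29 and -0.35 in the authors' deposited tables. Over the whole list of splicing and RNA-binding genes, 9 genes held 18 members, 6 higher and 12 lower. That is 10.7% of the 84 measured genes with merged IDs counted, beside 230 of 15123 genes (1.52%) in the whole table with merged IDs left out. These shares were counted in unlike ways and not matched for level, so they cannot be compared directly. The list's median base mean was 2439, against 405 for all genes, in the authors' deposited CA1 context table. At the level of whole genes, 3 of 84 were called higher and 26 lower after context, and 3 and 13 after shock. Over all genes the shares were 4.62% higher and 3.41% lower after context and 3.21% and 2.84% after shock. The list's median log2 fold change was -0.12 after context and -0.07 after shock, against -0.0036 and -0.01 over all genes, in the authors' deposited tables.

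Slc1a2, the main glutamate transporter of astrocytes, had the most members, 7, all coding. E018 had 0.15 and 0.24 and E019 0.15 and 0.15, after context and shock in the authors' deposited tables. E021, E022, E025 and E026 ran from 0.021 to 0.13 after context in the authors' deposited table. E027 had -0.047 after context and 0.0039 after shock in the authors' deposited tables, the member of mixed sign. The whole gene was at -0.00085 and -0.06 in the authors' deposited tables and was not called. Gpm6b, a proteolipid protein of neurons and glia, had 4 coding bins, E007 and the neighbouring E009, E010 and E011. All ran from 0.038 to 0.071 after context in the authors' deposited table. Mbp, the myelin basic protein gene, had E021 at 0.051 after shock in the authors' deposited table. Of 20 glial markers measured as whole genes, 1 was called after context and 0 after shock by the authors' adjusted p, with 3 at an unadjusted p under 0.05 in each comparison; 8.03% and 6.05% of all genes were called.

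Opposite signs within 1 gene were common where several bins were listed. Of 30 host IDs with at least 2 members, 14 had members of both directions, 8 had all higher, 7 all lower and 1, Slc1a2, held the bin of mixed sign. Dclk1, a doublecortin-like kinase of microtubules, had its last bin E021 at -0.12 and -0.22 after context and shock, with coding bins E007 at 0.17 after context and E017 at 0.082 after shock, in the authors' deposited tables. Fam168a had E007 and E008 at 0.41 each and E010 at -0.058 after context in the authors' deposited table. The coding bins E002, E003 and E004 of Ids, which encodes the lysosomal enzyme iduronate sulfatase, had 0.093, 0.14 and 0.13 after context in the authors' deposited table. D4Wsu53e had E011 at 0.26, E013 at 0.24 and E022 at -0.15 after shock in the authors' deposited table. Anks1b, a postsynaptic scaffold that can travel to the nucleus, had E089 at -0.65 and E090 at -0.32 after context and E087 at -0.14 after shock in the authors' deposited tables. In all, 43 members stood next to another member by number.

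The largest relative differences were at very low counts. Btaf1, which encodes a factor that removes TATA-binding protein from DNA, had E005 at 1.44 after context and 1.77 after shock, at base means of 6.69 and 11.8, in the authors' deposited tables. Btaf1 E006 had 1.14 after shock, and the whole gene was called higher at 0.52 and 0.60 in the authors' deposited tables. Pdgfa E003, of a platelet-derived growth factor chain, had 1.42 and 1.40 at base means near 8 (7.74 and 7.66) in the authors' deposited tables. Per1, a clock gene and immediate early gene, had a 3' UTR bin E025 at -0.79 and -0.73 while the whole gene rose by 0.38 and 0.34, after context and shock in the authors' deposited tables. At the other end, bins of high counts were listed on very small values. The last bin E011 of Camk4, a calcium/calmodulin-dependent kinase of the nucleus, had -0.052 after context (adjusted p = 0.00104) and -0.034 after shock (adjusted p = 7.57e-13) in the authors' deposited tables. Atp1b1 E003, of a sodium pump subunit, had 0.018 after shock (adjusted p = 7.77e-05) in the authors' deposited table. Values this close to 0 beside so small a p mean that the log2 value and the test may stand on different scales, and little weight rests on the direction of such bins. Among the 223 members whose listed values all lay at least 0.1 from 0, 67 of 68 last bins and 51 of 59 other 3' UTR bins were lower, and 57 of 66 coding bins and 8 of 8 in 5' UTRs were higher.

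Among synaptic genes, both directions occurred. Dlgap1, a scaffold of the postsynaptic density, had E044 at 0.58 and 0.72 and E023 at 0.13 after context in the authors' deposited tables. Bins of Ank3, the ankyrin of the axon initial segment, were lower after context, E122 at -0.23 and E126 at -0.36 in the authors' deposited table. Cadm2 E001, the last bin of an adhesion gene, had -0.080 after context in the authors' deposited table. The synaptic adhesion and scaffold list held 10 members in 5 genes, 5 higher and 5 lower, with Homer1 among them. As whole genes 5 of 40 were called higher and 1 lower after context, and 4 and 1 after shock. Of all genes, 4.62% were called higher and 3.41% lower after context, and 3.21% and 2.84% after shock. Of presynaptic genes, Snap25 E013, the last bin of a SNARE, had -0.078 after context, and Dnm1 E036, of dynamin, 0.13 and Pclo E003, of the active zone protein piccolo, 0.81 after shock, in the authors' deposited tables.

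In the lists of glutamate and GABA receptors and of ion channels, 5' UTR and coding members were higher and 3' members lower. Outside these lists, the 3' UTR bin Adora1 E003, of an adenosine receptor gene, was higher. Grm5 E001, in the 5' UTR, had 0.15 after context and Gria1 E010, in the coding sequence of the AMPA receptor subunit GluA1, had 0.12 after shock, while the last bin of the merged ID holding Gria4, of subunit GluA4, had -0.23 after shock, in the authors' deposited tables. That Gria4 bin, E001, was placed on only 3 bases, so its extent in the authors' version is uncertain. Among channels, the last bins of Kcnh7 (-0.083 and -0.053, context and shock) and Kcnb2 (-0.071, shock) and a 3' UTR bin of the calcium channel gene Cacna1a (-0.36, context) were lower, and Kcnab1 E001 was higher (0.17, context), in the authors' deposited tables. Kcnb2 as a whole gene was called higher, at 0.47 and 0.55 in the authors' deposited tables. Of the signalling kinases and phosphatases, Rasgrf1 E005, of a Ras exchange factor driven by calcium, stood out by its p, at 0.25 after shock (adjusted p = 4.52e-12) with a whole-gene value of 0.01, in the authors' deposited tables. Ppp2r2c E004, of a phosphatase subunit, had 0.11 after shock and Prkce E013, of a protein kinase C, 0.18 after context, in the authors' deposited tables.

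The 4 coding bins of cytoskeletal genes were higher. Macf1 E098, of a giant linker of actin and microtubules, had 0.71 after shock at a base mean of 17.5, and Sptbn1 E042, of beta spectrin, had 0.47 after context at 39.2, in the authors' deposited tables. Kif5c E018, of a kinesin motor, had 0.099 after context and Actb E016, of beta actin, 0.11 after shock, while the 3' UTR bin Map4 E006 had -0.12 after context, in the authors' deposited tables. The single member among chromatin genes was the 3' UTR bin Tet1 E002, of a DNA methylcytosine oxidase, with -0.079 after context in the authors' deposited table. No member lay in the listed CREB factors, endothelial and pericyte markers, dentate gyrus, CA1, cortical or choroid plexus markers. These lists had 7 to 18 measured genes each, and 1.52% of all genes were hosts with merged IDs left out. At that share a list this short would mostly hold no member, and 1 host among 47 chromatin genes is near it too. As whole genes, 9 of 18 endothelial and pericyte markers were called higher after context (1 lower) and 8 of 18 after shock. Of all genes, 4.62% were called higher and 3.41% lower after context, and 3.21% and 2.84% after shock. For the dentate gyrus markers the median log2 value was 0.44 and 0.35, and 0 of 8 were called by the authors' adjusted p, against 2 and 1 at an unadjusted p under 0.05, after context and shock in the authors' deposited tables. The part of these cell types in the bins was not tested. Cpne4 E024, of the CA3 and CA2 marker list, had -0.20 after shock in the authors' deposited table. Of the immediate early genes, 20 of 44 were called higher as whole genes after context and 22 after shock (1 lower), against 4.62% and 3.21% of all genes called higher. Homer1 and Per1, 4.55% of the list, held 4 members in all.

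Many of the same bins were listed in ACC 4 weeks after training, and most often with the opposite sign. After context, 121 of the 302 members (40.1%) were in the ACC list, against 2.22% of all bins tested there (1.33% higher and 0.897% lower). After shock, 86 (28.5%) were in the ACC list, against 1.26% of all tested (0.811% higher and 0.45% lower). At an adjusted p under 0.05 the share of all bins tested was 1.79% in ACC after context and 0.984% after shock. In all, 140 were in either ACC list and 67 in both. The host genes of members were abundant, and bins tested but not listed have no base mean here, so the part of counts in these shares was not tested. The rule did not use ACC values. The labels give all groups the same age and no ACC group at an earlier time, so in ACC the weeks of waiting and the training cannot be told apart.

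Of the 202 members lower in CA1, 77 were listed in ACC after context, 73 of them higher and 4 lower. After shock 56 were listed in ACC, 54 higher and 2 lower. This held at the 3' end and elsewhere. All 47 of the 3' last bins among them were higher in ACC after context and 30 of 31 after shock, and of the other bins 26 of 30 and 24 of 25 were higher. Of the 99 members higher in CA1, 43 were listed in ACC after context, 11 higher and 32 lower, and 29 after shock, 13 higher and 16 lower. Over all listed ACC bins, 59.7% were higher after context and 64.3% after shock. Last bins were also common among listed ACC bins that are not members, and their direction was not counted here. The higher values of last bins in ACC thus cannot be called particular to the members. Taking each training by itself, 93 bins were listed after context in both regions: 54 were lower in CA1 and higher in ACC, 25 higher and then lower, 9 higher in both and 5 lower in both. After shock, 58 bins were listed in both regions, 36 lower in CA1 and higher in ACC, 9 higher and then lower, 12 higher in both and 1 lower in both.

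**Figure D4:**
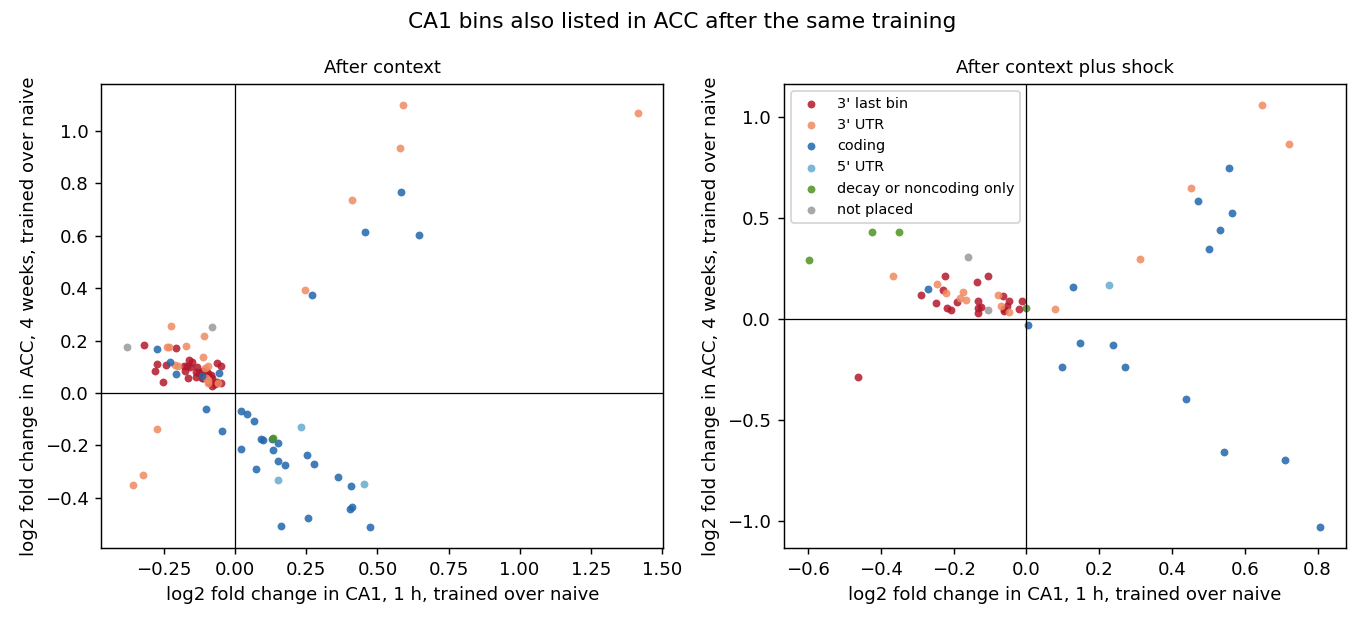
Log2 fold change in ACC 4 weeks after training (vertical) against that in CA1 1 h after training (horizontal), each over naive mice of the same region, for bins listed in both regions after context (left, 93 bins) and after context plus shock (right, 58 bins), coloured by location. The 3' last bins crowd the upper left, coding bins run through the lower right, and a separate group of bins lies in the upper right.

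The bins of opposite sign included those of Slc1a2: E018 had -0.19 and -0.13 and E019 -0.26 and -0.12 in ACC, after context and shock in the authors' deposited tables. Pclo E003 had -1.26 and -1.03, Macf1 E098 -1.13 and -0.70 and Sptbn1 E042 -0.51 and -0.37 in ACC, after context and shock in the authors' deposited tables. Grm5 E001 had -0.33 and -0.28 in ACC in the authors' deposited tables. The last bin of the merged Gria4 ID had 0.11 and 0.15, and that of Lsamp, an adhesion gene of limbic neurons, 0.062 and 0.042, in the ACC columns of the authors' deposited tables. Luc7l3 E021 kept its direction, at 0.35 in ACC after shock in the authors' deposited table.

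Some bins were higher in both regions. Dlgap1 E044 had 0.93 and 0.87 in ACC, after context and shock in the authors' deposited tables. Eif5b E005, of a translation initiation factor, had 0.65 and 0.57 in CA1 and 0.60 and 0.53 in ACC, after context and shock in the authors' deposited tables. Bins E034 and E036 of a merged ID that holds Psmd1, a proteasome subunit gene, had 0.46 and 0.58 in CA1 and 0.62 and 0.77 in ACC after context in the authors' deposited tables. Adora1 E003, in the 3' UTR of the adenosine A1 receptor gene, had 0.24 and 0.31 in CA1 and 0.39 and 0.30 in ACC, after context and shock in the authors' deposited tables. Pdgfa E003 had 1.07 in ACC after context in the authors' deposited table. Lower in both regions after context were Map3k12 E002, of a kinase of axon injury, with -0.36 in CA1 and -0.35 in ACC in the authors' deposited tables, and, with smaller values, Fbxo3 E018, Hnrnpa2b1 E006, E017 of the merged ID of Atl1, and Slc1a2 E027. After shock Sphk2 E001, the last bin of a sphingosine kinase gene, was lower in both, at -0.46 in CA1 and -0.29 in ACC, and its coding bin E003 was higher in both, at 0.13 and 0.16, in the authors' deposited tables.

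Whole-gene fold changes were also set against transcript length, which compares genes and not places along a transcript. Across genes with a base mean of at least 100, the log2 fold change ran with transcript length at a Spearman rho of 0.17 in CA1 after context (11218 genes), 0.071 in CA1 after shock, -0.61 in ACC after context and -0.53 in ACC after shock. Genes are not independent replicates, and no RNA quality value per library is in the tables. The sign of rho was thus opposite in the regions, as was the sign of the 3' last bins; the part of RNA integrity or fragment length in either was not tested.

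Most host genes were not called as whole genes in CA1. Of the 230 host genes in the gene tables, 41 were called at an adjusted p under 0.05 after context (17.8%, 20 higher and 21 lower) and 26 after shock (11.3%, 18 higher and 8 lower), against 8.03% of all genes after context (4.62% higher and 3.41% lower) and 6.05% after shock (3.21% higher and 2.84% lower). Host genes were abundant, with a median base mean of 2144 against 405 for all genes in the CA1 context table. Among genes with a base mean of at least 500 the shares were 17.4% of hosts against 11.0% of genes after context, and 10.3% against 6.87% after shock. Hosts of bins in both CA1 lists were called in 16 of 60 cases after context and 13 of 60 after shock. In ACC, 98 hosts were called after context (42.6%, 7 higher and 91 lower) and 173 after shock (75.2%, 15 higher and 158 lower), against 19.6% of all genes after context (9.37% higher and 10.2% lower) and 41.6% after shock (19.8% higher and 21.8% lower). Genes with a base mean of at least 500 were called in 28.6% and 59.3% of cases. Of the 47 last bins higher in ACC after context, 44 lay in genes of the gene table, of which 20 were called lower, 0 higher and 24 not called. Of the 30 after shock, 28 lay in such genes, of which 25 were called lower, 0 higher and 3 not called.

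**Figure D5:**
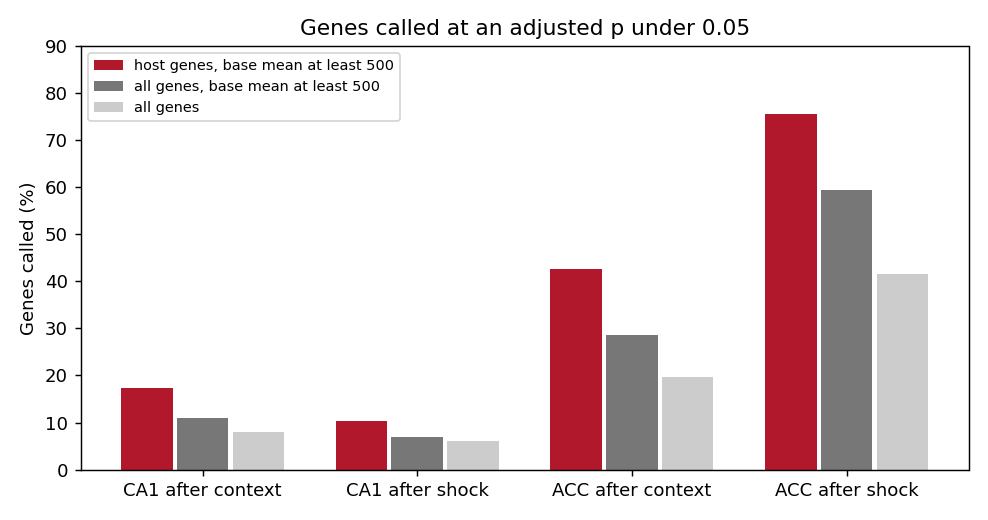
Share of genes (vertical, percent) called at an adjusted p under 0.05 in each trained group against naive mice, for host genes of CA1 bins with a base mean of at least 500 (red), all genes at that level (grey) and all genes (light grey). Host genes stand at 17.4% against 11.0% in CA1 after context and at 75.6% against 59.3% in ACC after shock.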

How the data were processed

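RNA from CA1 or ACC was extracted with Tri Reagent and made into TruSeq RNA v2 libraries, per the labels' protocols, from polyadenylated RNA. Among the tools in the submitters' processing notes are STAR 2.3.0e, DESeq2, SAMtools and CASAVA 1.8.2, with the build mm10; which tool made the bin tables, from which annotation and strand, was not given in the sources used here. The authors deposited 4 gene tables and 4 bin tables. Per the file headers each holds a base mean (the authors' mean signal in normalised counts), a log2 fold change, and a p-value with its adjusted value. No value per library was in these tables, so no test was refitted and depth is unknown.

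Here members were counted by direction at the deposited adjusted p (bins under 0.1, genes under 0.05). The number of bins tested was taken as the commonest value of adjusted p times rank over p. The direction of a fold change was read from the base means: a feature with the larger fold change in 1 of the 2 CA1 tables also had the larger base mean there (slope 0.46 on the log2 scale across genes, and 1.14 over 70 bins taken relative to their gene). Bins were rebuilt from GENCODE M21 transcripts with an ENSMUST number up to 192000. That limit was chosen on 4668 ACC bins that are not members: 763 of 2400 plus-strand bins then fell on a gene's last bin, against 414 with all transcripts, and the rank correlation of bin length with the bin's share of its gene's mean was 0.76 against 0.52. The formula for the number of bins tested and the cutting of exons into bins were checked on simulated data. The transcript limit, the placing by number and the location labels were not. Named bins were those with the smallest p (10 per class), the highest and lowest values, at least 3 bins in a gene, a place in a gene list or a listing in ACC, plus those nearest the listing limit; Ndufab1 E001, 3110035E14Rik E001, Btaf1 E005 and E006 were named after their values were seen. Members and gene lists were chosen with earlier results of these data known. Python 3.11.15 with numpy 2.4.6, pandas 2.3.3 and matplotlib 3.10.9 was used.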

Additional observations from a re-analysis of the deposited data

How the results depend on the processing

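Of 17 alternatives, 9 left a count within 1.5 times its value. At an adjusted p under 0.05 the bins listed in CA1 came to 101 after context (33 higher, 68 lower) and 122 after shock (35 higher, 87 lower), those in both lists to 49, and those also listed in ACC, with that limit in both regions, to 61 after context and 42 after shock. The link of place and direction was also counted there: of 174 members under 0.05 in either CA1 table, 64 of 65 last bins were lower and 38 of 46 coding bins higher. In genes with matching ends the lower last bins came to 57 and the higher coding bins to 50, because fewer genes were used. Without members near 0 (an absolute log2 under 0.1) they came to 67 and 57. With all transcripts of the annotation, 90 of 91 last bins were lower. These settings of the placing, the limit near 0, and the limit to genes with a base mean of at least 500, were chosen after seeing the data. No paired analysis was possible because the tables hold no value per library, and for the same reason no library could be left out. Bins beyond the listing limit have no values, so nothing can be said of bins that are in 1 list and not in the other, and the difference between context and shock was not tested.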
